A study of Mus musculus with 6 samples.

Results

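The genes of the mitochondrial genome were followed in mouse spermatogonial stem cells grown with bisphenol A (BPA), an estrogen-like plastics chemical, or untreated. Such cells renew themselves and give rise to sperm. The members were the rows of the deposited gene table whose locus lies on MT, the mitochondrial chromosome. They numbered 13 of 34745 rows and were the 13 protein genes. The 2 ribosomal RNA genes and the 22 transfer RNA genes that GENCODE places on that chromosome were not analysed here. The 3 BPA libraries came from cultures given 100 µM BPA in complete medium for about 4 days, and the 3 untreated libraries from cultures whose titles say untreated and name no vehicle. All cultures were DBA/2J X c57BL/6J cells from postnatal day 6, at passages 15 to 20. No source used here says that replicates were separate cultures or animals, so p-values reflect only how these samples scatter, which may be technical.

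Mitochondrial DNA is a small circle present in many copies per cell. It is transcribed from both strands as long precursors, which are cut at the transfer RNAs that lie between the protein genes, so that neighbouring messages start out on the same molecule and their later levels depend largely on processing and stability. Its protein genes encode membrane subunits of respiratory complexes I, III and IV and of the ATP synthase (complex V), and complex II has none. In spermatogonial stem cells, glycolysis is thought to supply much of the energy, and respiration gains weight as the cells differentiate. Most of the messages carry short poly(A) tails and are therefore captured by kits, such as the TruSeq one used here, that select poly(A) RNA.

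Of the 13 genes, 7 had a copy in nuclear DNA, of the whole gene or a part at above 99% identity, that held counts. The sequences therefore come first. The nuclear copies form one block on chromosome 1, from 24611535 to 24616197 (mm10, minus strand), made of 7 annotated unprocessed pseudogenes. These match 7 neighbouring mitochondrial genes over 4140 aligned bases, from the end of mt-Co1 to the first part of mt-Nd4. Gm28661, Gm10925, Gm28437, Gm10222 and Gm28439 matched mt-Co2, mt-Atp6, mt-Co3, mt-Nd4l and mt-Nd4 with no difference over 681, 678, 783, 294 and 876 aligned bases. Gm28438 differed from mt-Nd3 at 1 of 345 bases (T3C, the mitochondrial base first, counted from the first base of the mitochondrial gene), and Gm29216 from mt-Co1 at 1 of 483 aligned bases (A1066T, counted likewise). The 2 differing stretches are shown because, within the aligned bases, a read outside them cannot be told apart by its sequence. The capital marks the differing base (GENCODE transcript sequences, 5′ to 3′). The mitochondrial stretches lie at MT:9459-9491 and MT:6390-6423 on the plus strand, and the nuclear ones at chr1:24613087-24613119 and chr1:24616155-24616188 on the minus strand.
mt-Nd3: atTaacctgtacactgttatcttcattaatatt
Gm28438: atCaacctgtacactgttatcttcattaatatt
mt-Co1: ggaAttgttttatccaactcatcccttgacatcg
Gm29216: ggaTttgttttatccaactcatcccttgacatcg

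The counts of mt-Co3, mt-Co2, mt-Nd3 and mt-Nd4l were divided almost evenly with their copies, and those of mt-Atp6, mt-Nd4 and mt-Co1 were not. In BPA replicates 1 to 3 mt-Co3 had 64714, 51211 and 83005 counts and its copy Gm28437 had 64861, 51051 and 82649. In untreated replicates 1 to 3 mt-Co3 had 110989, 81551 and 64229 counts and Gm28437 had 109863, 82144 and 64529. The mitochondrial row thus held 49.8% to 50.3% of the counts of both rows in the 6 libraries, and for mt-Co2 it held 49.6% to 50.3% (95% Wilson half-widths of at most 0.31 and 0.73 percentage points). These were the 2 pairs within 5% of each other in every library. mt-Nd3 and Gm28438 lay just outside, with a largest deviation of 7.2% and a mitochondrial share of 49.1% to 51.9%. For mt-Nd4l, with 97 to 367 counts a library, the share was 46.6% to 52.8%.

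Where the copy covers a part of the gene, the mitochondrial share was higher. mt-Nd4, matched over 63.6% of its length, held 76.9% to 80.9% of the counts of both rows, and mt-Co1, matched over 31.3%, held 87.0% to 90.2%. mt-Atp6 held only 36.3% to 37.6%, below its copy Gm10925 in every library. The first 43 bases of mt-Atp6 are also the last 43 of mt-Atp8, while no row for a copy of mt-Atp8 lies in the chromosome 1 block; whether reads over shared bases were left uncounted is not given in the sources used here. That overlap, MT:7915-7981 with 12 bases on each side and the shared bases in capitals, shows the start codon of mt-Atp6 inside mt-Atp8.
mt-Atp8 and mt-Atp6: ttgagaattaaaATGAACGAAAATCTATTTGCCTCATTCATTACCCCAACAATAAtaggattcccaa

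**Figure D1:**
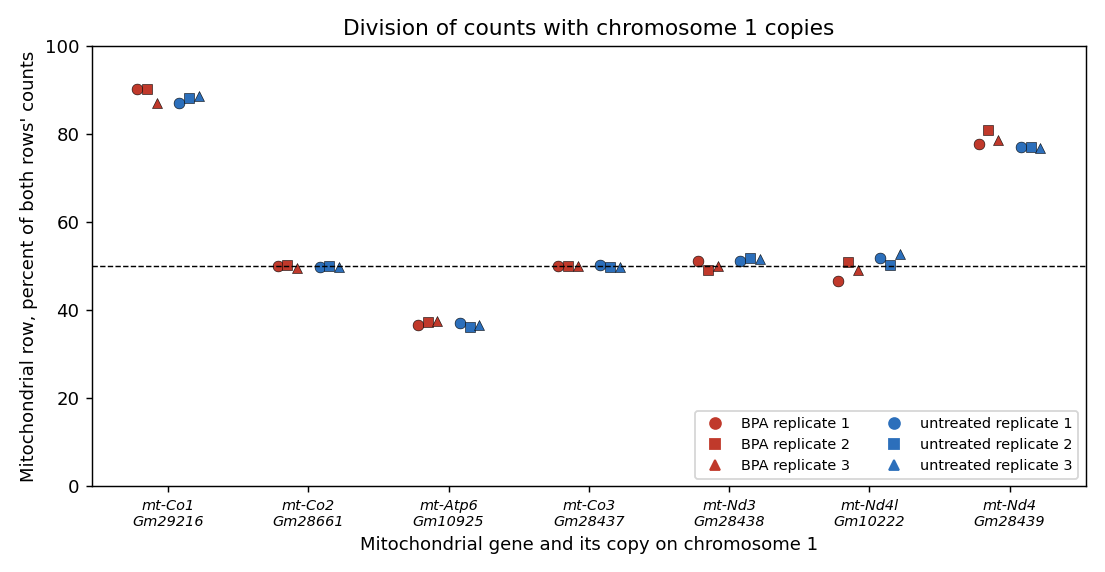
Share of the mitochondrial row in the summed counts of that row and its chromosome 1 copy (y axis, percent) for 7 gene pairs (x axis), 1 point per library, with the dashed line at 50%. mt-Co2 and mt-Co3 sit between 49.6% and 50.3% in all 6 libraries, mt-Atp6 near 37% and mt-Co1 and mt-Nd4 above 76%.

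A further 8 nuclear rows matched a member over at least 100 bases at 80% identity or more, and they had 0 to 214 counts in any library. Those on chromosome 2 (Gm13339, Gm13340 and Gm13341) resemble mt-Nd2, mt-Co1 and mt-Co2 at 95.9% to 97.6% identity, and the mitochondrial row held at least 99.8% of the counts of both. mt-Nd1, mt-Nd6 and mt-Cytb had no match. Between libraries, counts of a divided gene stay comparable as long as the division is the same, and it differed little between groups: the mean mitochondrial share was 50.04% in BPA and 49.98% in untreated libraries for mt-Co3, 50.1% and 51.6% for mt-Nd3, and 79.1% and 77.1% for mt-Nd4. Levels of different genes cannot be compared without adding the copies. Whether a read with several matches was counted once or at each place is not given in the sources used here. In the latter case such sums count it more than once.

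Library totals were 14232872 to 22286517 counts with BPA and 13453280 to 19183912 untreated. Markers of the labelled cell type were present, with a few of other cells. The 11 stem and germ cell markers were all counted, with a summed level of 304 to 358 FPKM (counts scaled to gene length and library total) in BPA and 532 to 575 in untreated libraries, 2 of them lower and 1 higher in the test used below. That test called 6.28% of all tested genes lower and 4.37% higher. Of 4 differentiation and meiosis markers, summing to 24.0 to 72.6 and 13 to 19.9 FPKM, 1 was higher. The 5 Sertoli markers summed to 6.72 to 8.92 and 2.44 to 3.01 FPKM (Rhox5 at 0, 1 higher), and the 7 fibroblast markers to 6.43 to 10.1 and 8.82 to 12.1 FPKM, none called. The 3 macrophage markers summed to 14.0 to 19.6 and 22.4 to 24.7 FPKM, and only 1 of them was tested, without a call. That sum came almost entirely from Cd68, while Ptprc and Adgre1 were nearly absent, so it does not show a level of macrophage markers as a set. Nanos3 was the largest term of the stem and germ cell sum, and Sox9 of the Sertoli sum. The part these marker differences play in the results was not tested. In bulk RNA, fewer cells of a type and less RNA per cell cannot be told apart, nor can fewer mitochondria and less RNA in each.

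The 13 rows took 2.69%, 2.05% and 1.97% of all counts in BPA replicates 1 to 3, against 2.46%, 2.57% and 2.04% in untreated replicates 1 to 3 (95% Wilson half-widths of at most 0.0085 percentage points). The groups overlapped, with means of 2.24% ± 0.392 in BPA and 2.36% ± 0.278 in untreated libraries (SD, n = 3 each; exact permutation test, two-sided p = 0.9, where 0.10 is the smallest this design allows). With the 7 copies added the share was 3.05% ± 0.581 in BPA and 3.53% ± 0.458 in untreated libraries (exact permutation p = 0.2). A difference in the share of mitochondrial messages was therefore not detectable over the spread between libraries.

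mt-Nd3 was lower in every BPA library than in every untreated one, and had the smallest p of the members. mt-Co3 also passed the test as lower, mt-Atp6 and mt-Nd1 came close to it, and mt-Co1 and mt-Co2 were the 2 members with values above 0. The test was edgeR's quasi-likelihood test on the counts of all 13287 genes that passed a filter on low counts, p-values adjusted by Benjamini-Hochberg and called under 0.05, and each log2 fold change (BPA over untreated) carries a standard error (SE). All 13 members passed the filter. Of them 2 were lower (15.4%) and 0 higher, where 6.28% of all tested genes were called lower and 4.37% higher. At an unadjusted p under 0.05, 8 members were lower and 2 higher. The median log2 fold change was -0.42 over the members and 0.10 over all tested genes. For 6 members (46.2%) every BPA value lay below every untreated one, where 15.7% of all tested genes had no overlap in that direction and 15.6% in the other. The members are read from shared precursor molecules and are not independent of each other.

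Leaving out 1 library changed the count. It was 5 lower without BPA replicate 1, 6 lower without BPA replicate 2, 1 lower and 1 higher without BPA replicate 3, and 1 lower without untreated replicate 1 or without untreated replicate 2, and 2 lower without untreated replicate 3. Of all tested genes 4.15%, 20.5% and 5.23% were called, in either direction, without BPA replicate 1, 2 or 3. Without untreated replicate 1, 2 or 3 the share was 3.25%, 3.72% and 5.88%, beside 10.6% with all libraries. Scaling by library size alone, which moves the median of all tested genes to 0.21, gave 1 lower (mt-Nd3) and 2 higher (mt-Co1 and mt-Co2). There 12.2% of all tested genes were called.

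**Figure D2:**
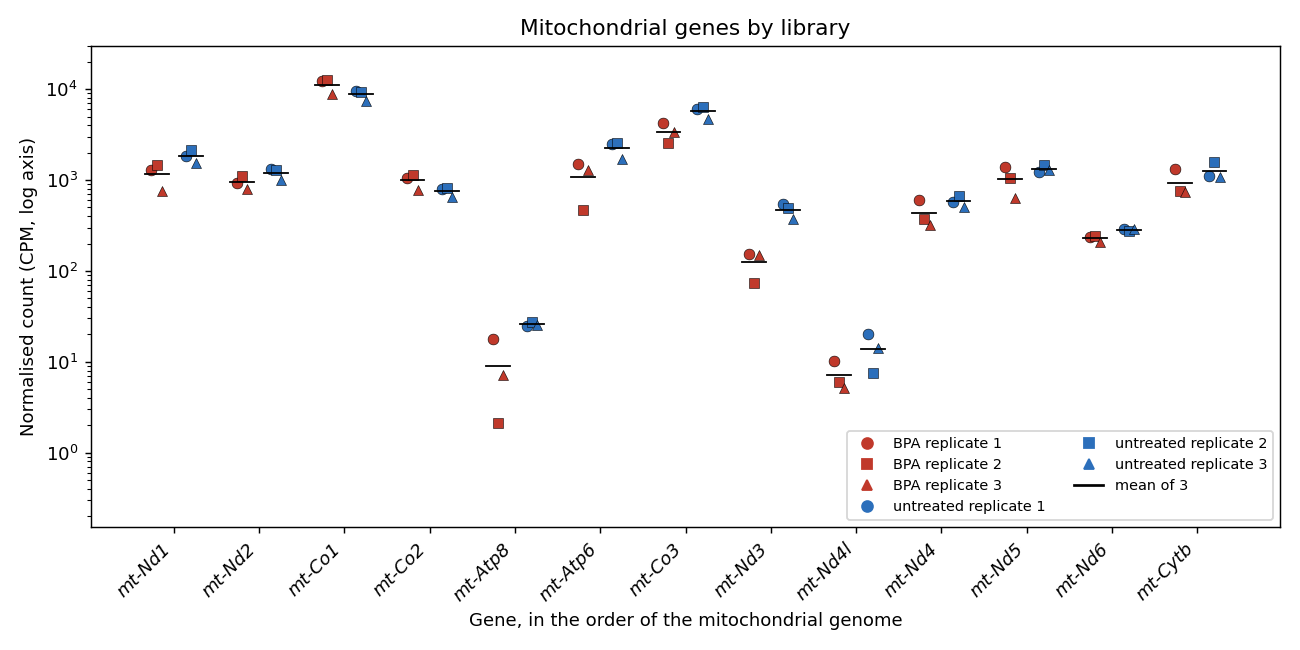
Normalised counts (CPM, log axis) of the 13 mitochondrial genes (x axis, in genome order) in the 3 BPA and the 3 untreated libraries, 1 point per library, with a line at each mean. mt-Nd3 lies between 73.4 and 153 CPM in BPA libraries, below all untreated ones, and BPA replicate 2 is far below the other BPA libraries for mt-Atp8 and mt-Atp6.

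Complex I, the NADH dehydrogenase that feeds electrons into the chain, has 7 members, all subunits of its membrane arm. mt-Nd3 (ENSMUSG00000064360, MT:9459-9806) encodes a small subunit with a loop near the quinone site that moves between the active and resting forms of the enzyme. It had 153, 73.4 and 149 CPM (counts scaled to libraries of equal effective size) in BPA replicates 1 to 3, against 541, 498 and 377 CPM in untreated replicates 1 to 3. All BPA values lay below all untreated ones. The log2 fold change was -1.92 (SE 0.25, edgeR adjusted p = 0.000697), and the gene passed without each library in turn (-2.08 to -1.64, edgeR adjusted p 2.39e-05 to 0.0111). Its chromosome 1 copy gave -1.85 (SE 0.24), and the sum of both rows -1.88 (SE 0.24, edgeR adjusted p = 0.000585). With offsets fitted to GC content and length it was at -1.31 (edgeR adjusted p = 0.00146).

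mt-Nd1 (MT:2751-3707), the first protein gene after the ribosomal RNAs, had 1278, 1455 and 767 CPM in BPA libraries and 1853, 2136 and 1549 CPM in untreated ones. The groups did not overlap, but the test was missed (-0.66, SE 0.21, edgeR adjusted p = 0.0607), with BPA replicate 3 lowest. Without BPA replicate 2 it passed (-0.85, edgeR adjusted p = 0.00663), as it did in DESeq2 (adjusted p = 0.00964) and limma-voom (0.0364). Under the GC and length offsets it was at -0.19 (edgeR adjusted p = 0.833).

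mt-Nd6, the one member on the opposite strand, was the steadiest within groups. It had 239, 241 and 210 CPM in BPA libraries and 290, 274 and 288 CPM in untreated ones, without overlap and with a small difference (-0.31, SE 0.14, edgeR adjusted p = 0.192). The kit does not mark strand, so reads over its locus from the plus-strand transcript of the genes around it cannot be told apart from its own. How fully poly(A) selection captures the mt-Nd6 message was not tested. Under the GC and length offsets the value was 0.46 (edgeR adjusted p = 0.509).

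The other complex I members overlapped between groups and did not pass. mt-Nd2 averaged 948 ± 152 CPM in BPA and 1210 ± 173 CPM in untreated libraries, mt-Nd5 1021 ± 382 and 1319 ± 124 CPM, and mt-Nd4 436 ± 153 and 583 ± 83.3 CPM (SD, n = 3 each). Their log2 fold changes were -0.35, -0.37 and -0.42. Under the GC and length offsets mt-Nd2 turned to 0.21 (edgeR adjusted p = 0.802), and mt-Nd5 and mt-Nd4 were at -0.16 and -0.13. mt-Nd4 and mt-Nd5 were as high as in untreated libraries in BPA replicate 1 and lower in the other BPA libraries, and mt-Nd4 passed without BPA replicate 1 (-0.73, edgeR adjusted p = 0.0462). mt-Nd4l, whose last 7 bases are also the first of mt-Nd4, had only 97 to 367 counts and was at -0.98 (SE 0.45, edgeR adjusted p = 0.197) and under those offsets at -0.60. Summed over complex I, the members had 4606, 4306 and 2889 CPM in BPA and 5825, 6340 and 5022 CPM in untreated libraries, without overlap (exact permutation test, two-sided p = 0.1, the smallest this design allows).

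Complex III, which passes electrons to cytochrome c, has 1 member. mt-Cytb (MT:14145-15288), the subunit that holds both quinone sites, had 1310, 764 and 744 CPM in BPA libraries and 1114, 1586 and 1070 CPM in untreated ones. BPA replicate 1 lay among the untreated values and the other BPA libraries below them. The log2 fold change was -0.42 (SE 0.22, edgeR adjusted p = 0.26), and no alternative fit of the counts called it.

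Complex IV, cytochrome oxidase, reduces oxygen, and its 3 members did not move together. mt-Co1 (MT:5328-6872), the subunit that binds the oxygen-reducing haem and copper, had 12313, 12543 and 8833 CPM in BPA libraries, against 9507, 9401 and 7481 CPM in untreated ones. BPA replicates 1 and 2 lay above all untreated libraries and BPA replicate 3 among them. The log2 fold change was 0.35 (SE 0.15, edgeR adjusted p = 0.152). It passed without BPA replicate 3 (0.50, edgeR adjusted p = 0.0378) and where library size alone set the scale (0.45, edgeR adjusted p = 0.0272).

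mt-Co2 (MT:7013-7696), which takes up electrons from cytochrome c, had 1058, 1146 and 771 CPM in BPA libraries and 800, 821 and 647 CPM in untreated ones (0.39, SE 0.16, edgeR adjusted p = 0.16). The order of the libraries was close to that of mt-Co1. For each 100 counts of mt-Co1 there were 8.59, 9.13 and 8.73 counts of mt-Co2 in BPA libraries and 8.41, 8.73 and 8.65 in untreated ones, so this ratio moved little between libraries. Under the GC and length offsets mt-Co2 was at 0.83 (edgeR adjusted p = 0.153) and mt-Co1 at 0.49 (0.357).

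mt-Co3 (ENSMUSG00000064358, MT:8607-9390), the third core subunit, had 4237, 2538 and 3384 CPM in BPA libraries and 6081, 6400 and 4661 CPM in untreated ones. The groups did not overlap. The log2 fold change was -0.75 (SE 0.18, edgeR adjusted p = 0.0194), and -0.76 with the copy added (edgeR adjusted p = 0.0173). The call was lost without untreated replicate 1 or 2 (edgeR adjusted p = 0.108 and 0.114) or without BPA replicate 3 (0.0516), where library size alone set the scale (-0.63, edgeR adjusted p = 0.0633) and under the GC and length offsets (-0.56, edgeR adjusted p = 0.0642). Summed over complex IV the members had 15608 ± 2371 CPM in BPA and 15266 ± 2149 CPM in untreated libraries (SD, n = 3 each; exact permutation p = 0.8).

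Complex V, the ATP synthase, has 2 members. mt-Atp6 (MT:7927-8607), the subunit through which protons enter the rotor, had 1490, 469 and 1290 CPM in BPA libraries, against 2520, 2565 and 1696 CPM in untreated ones. The groups did not overlap and BPA replicate 2 was lowest by far. The log2 fold change was -1.06 (SE 0.32, edgeR adjusted p = 0.0549). The sum with Gm10925 gave -1.08 (edgeR adjusted p = 0.0505). mt-Atp6 passed without BPA replicate 1 (-1.35, edgeR adjusted p = 0.0498) or BPA replicate 2 (-0.70, edgeR adjusted p = 0.00663). It also passed under the GC and length offsets (-0.89, edgeR adjusted p = 0.000761) and in limma-voom (-1.21, adjusted p = 0.0271). DESeq2 did not call it (adjusted p = 0.0917), nor did scaling by library size alone (edgeR adjusted p = 0.14). Neither did leaving out any other single library (edgeR adjusted p 0.0807 to 0.188).

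mt-Atp8 (MT:7766-7969), a small subunit of the stalk, had 270, 43 and 177 counts in BPA libraries and 456, 346 and 349 counts in untreated ones, or 17.7, 2.13 and 7.22 CPM against 25.0, 27.2 and 25.3 CPM. The untreated values were nearly equal and the BPA values spread widely below them (-1.53, SE 0.56, edgeR adjusted p = 0.105). Without BPA replicate 1 it passed at -2.45 (edgeR adjusted p = 0.0229), and without BPA replicate 2 it was at -1.06 (edgeR adjusted p = 0.0674). It also passed in DESeq2 (adjusted p = 0.0301) and limma-voom (-2.08, adjusted p = 0.022).

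**Figure D3:**
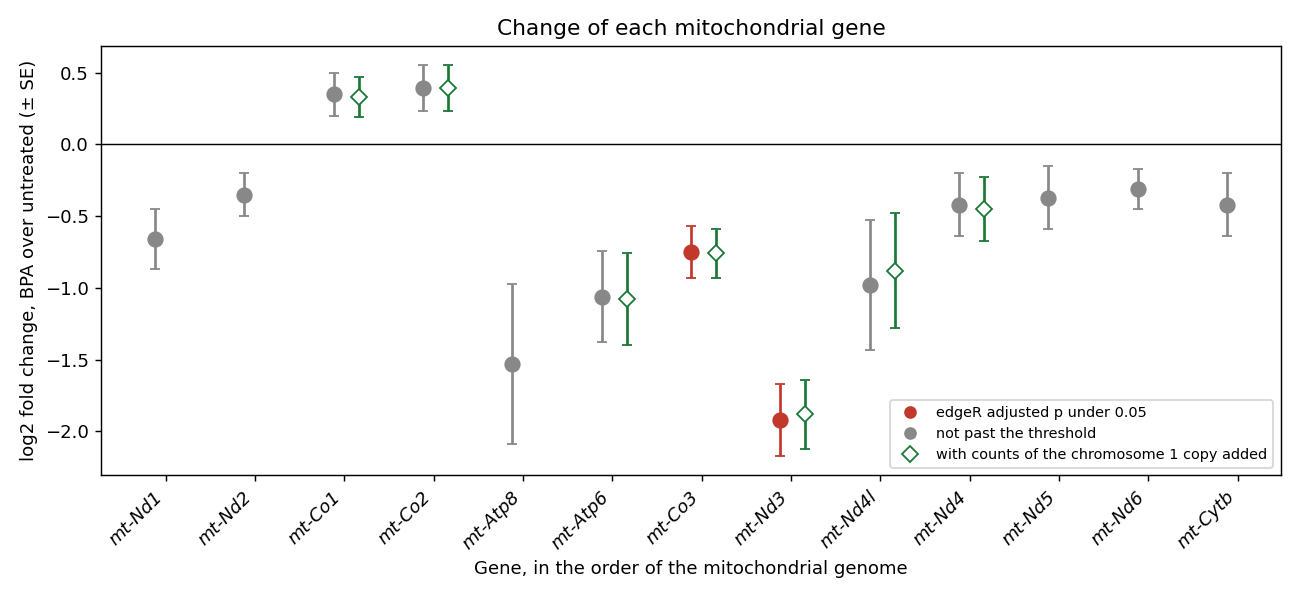
Log2 fold change, BPA over untreated, with its SE (y axis) of the 13 mitochondrial genes in genome order (x axis). Red circles passed an edgeR adjusted p of 0.05, grey circles did not, and open diamonds show 7 genes with the counts of their chromosome 1 copy added. The values run from 0.39 for mt-Co2 to -1.92 for mt-Nd3, and adding the copies leaves each direction as it was.

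Read along the genome, the values did not change smoothly. Neighbours that passed from above 0 to well below it were mt-Co2 (0.39) and mt-Atp8 (-1.53), and the stretch from mt-Atp8 to mt-Nd4l held all 5 values below -0.70. The composition of the mitochondrial counts shows the same in each library. mt-Co1 held 49.2%, 57.6% and 49.3% of the counts of the 13 rows in BPA libraries and 36.8%, 34.6% and 36.3% in untreated ones. mt-Co3 held 16.9%, 11.7% and 18.9% in BPA and 23.5%, 23.6% and 22.6% in untreated libraries, and mt-Nd3 0.611%, 0.337% and 0.830% against 2.09%, 1.84% and 1.83% (95% Wilson half-widths of at most 0.18 percentage points). The untreated libraries resembled each other closely in these shares, and the BPA libraries differed from them and among themselves. Shares of 1 total depend on each other, and a high share of mt-Co1 lowers the rest.

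**Figure D4:**
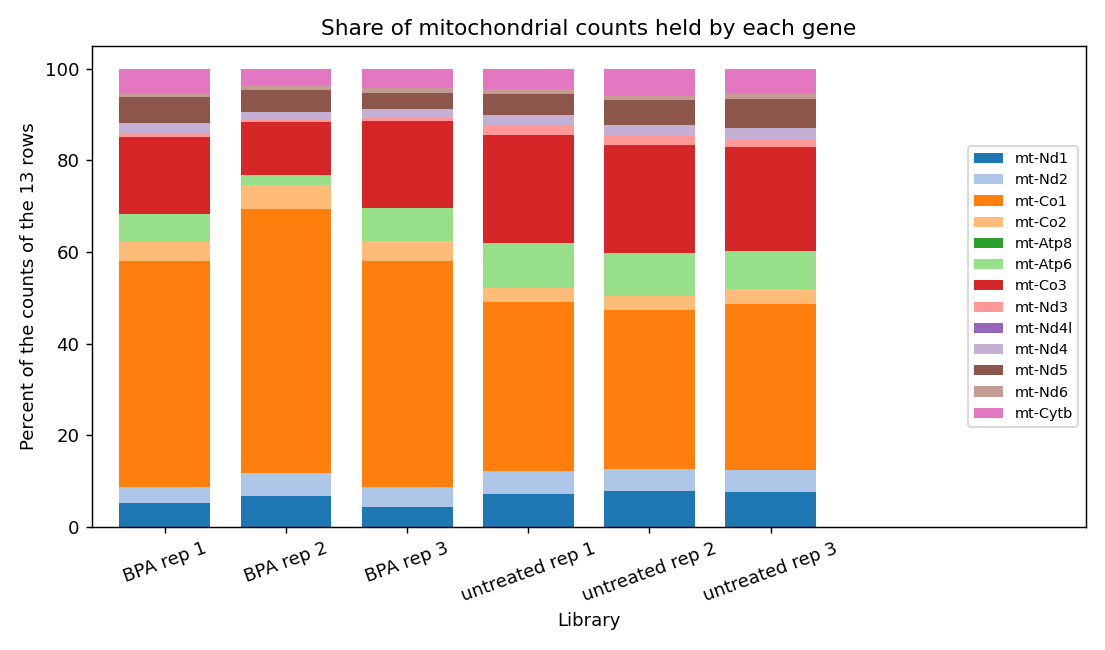
Percent of the counts of the 13 mitochondrial rows (y axis) held by each gene in the 3 BPA and the 3 untreated libraries (x axis), as stacked bars that sum to 100%. mt-Co1 takes 49.2% to 57.6% in BPA libraries and 34.6% to 36.8% in untreated ones. The rows are as deposited, and with the chromosome 1 copies added mt-Co1 averages 43.0% and 27.3%.

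Set against mt-Co1 within the same library, which needs no scaling between libraries, mt-Nd3 had 1.24, 0.585 and 1.68 counts for each 100 of mt-Co1 in BPA libraries and 5.69, 5.30 and 5.04 in untreated ones. mt-Atp6 had 12.1, 3.74 and 14.6 against 26.5, 27.3 and 22.7, mt-Co3 34.4, 20.2 and 38.3 against 64.0, 68.1 and 62.3, and mt-Nd1 10.4, 11.6 and 8.68 against 19.5, 22.7 and 20.7. None of these ratios overlapped between groups. They use the rows as deposited, without the chromosome 1 copies, so their size does not compare the levels of 2 genes. A ratio shows unequal change and does not say which of the 2 genes moved.

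Levels per length put the members in order once the counts of the 7 chromosome 1 copies were added. The order holds only if reads with several matches were not counted at each place, which is not known. In BPA libraries mt-Co3 and mt-Co1 were highest, at 9059 ± 2789 and 8397 ± 1127 FPKM, and did not differ beyond their spread, followed by mt-Atp6 at 4561 ± 2484 and mt-Co2 at 2987 ± 431 FPKM (SD, n = 3). In untreated libraries mt-Co3 stood alone at 14010 ± 1938 FPKM, followed by mt-Atp6 at 8685 ± 1692, mt-Co1 at 6226 ± 703, mt-Nd3 at 2529 ± 406 and mt-Co2 at 2130 ± 212 FPKM. mt-Nd3 and mt-Co2 were close to each other there, while in BPA libraries mt-Nd3 averaged 755 ± 304 FPKM. At the low end, mt-Nd5, mt-Nd4 and mt-Nd6 had 579 ± 222, 419 ± 168 and 458 ± 30.7 FPKM in BPA libraries and 696 ± 60.6, 528 ± 63.5 and 528 ± 25.2 FPKM in untreated ones, and their order is not fixed by these data. Lowest were mt-Nd4l with its copy, at 51.7 ± 23.5 FPKM in BPA and 87.6 ± 38.1 FPKM in untreated libraries, and mt-Atp8, at 47.3 ± 42.2 and 122 ± 4.90 FPKM. Both overlap a neighbour. The chromosome 1 block has no row whose counts could be added to mt-Atp8, so its place in the order is uncertain. Whether reads over the bases that mt-Atp6 shares with mt-Atp8 were counted is not given in the sources used here.

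BPA replicate 2 differed from the other BPA libraries in nuclear genes as well. All 13 members have a GC content of 31.9% to 41.1%. Over the 1363 tested nuclear genes with a GC content under 42%, the median log2 difference from the untreated mean was 0.64, -0.36 and 0.61 in BPA replicates 1 to 3. The 410 tested nuclear genes from 500 to under 1000 bases had medians of -0.33, -0.28 and -0.36. Over the 13 members the rank correlation of the log2 fold change with gene length was 0.58 and with GC content 0.28, as a description of genes that share libraries and precursors. Over nuclear genes these were 0.21 and -0.26. The members of 348 bases or less, mt-Atp8, mt-Nd4l and mt-Nd3, were among the 4 lowest values, while the 86 tested nuclear genes under 500 bases had a median of -0.10. The part of GC content and length in the members' values was not tested beyond the offsets. With these, 3 members were called lower, namely mt-Nd3, mt-Atp6 and mt-Atp8 (-1.16, edgeR adjusted p = 0.0239). Of all 13287 tested genes 1232 were called lower with the offsets, beside 835 without them, so calls rose in general. mt-Co3 lost its call with the offsets, mt-Nd1 shrank to -0.19 and mt-Nd2 and mt-Nd6 turned in sign.

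Of 77 tested nuclear genes, in 6 lists, that express and maintain the mitochondrial genome, 5 were lower and 3 higher, with a median log2 fold change of 0.09. Of all tested genes 10.6% were called. Without BPA replicate 2, where 20.5% of all tested genes were called, the counts were 12 lower and 7 higher. Without any other single library, where 3.25% to 5.88% were called, they were 2 to 3 lower and 0 to 1 higher. In the transcription list, none of 8 tested genes passed, and its median was 0.38. Polrmt, the mitochondrial RNA polymerase, averaged 149 ± 47.1 CPM in BPA and 125 ± 13.03 CPM in untreated libraries (0.25, SE 0.21, edgeR adjusted p = 0.513). Mterf4, a factor of the mitochondrial ribosome's assembly, averaged 39.3 ± 4.78 and 37.0 ± 8.48 CPM (0.09, SE 0.25).

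Of 20 genes of RNA processing, polyadenylation and stability, 2 were lower and 0 higher. The calls turned to 0 lower and 1 higher with scaling by library size alone, and to 0 lower and 2 higher with no low-count filter. In those fits 12.2% and 10.2% of all tested genes were called. Hsd17b10, which encodes a subunit of the RNase P that cuts at transfer RNAs, averaged 98.3 ± 1.56 CPM in BPA and 144 ± 7.43 CPM in untreated libraries (-0.55, SE 0.16, edgeR adjusted p = 0.0409). Rexo2, an exonuclease that degrades short RNAs, was at -0.52 (SE 0.15, edgeR adjusted p = 0.044). Both passed in only 1 of 6 fits that left out a library. Among 15 modification genes Cdk5rap1, a transfer RNA modifying enzyme, was higher at 38.0 ± 0.493 against 19.1 ± 5.88 CPM (1.0, SE 0.28, edgeR adjusted p = 0.0391), and it passed in 2 of 6 such fits.

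Among 14 genes of DNA replication and maintenance Endog, a mitochondrial endonuclease, was lower, with 31.5, 46.7 and 30.8 CPM in BPA and 77.5, 81.6 and 89.0 CPM in untreated libraries (-1.19, SE 0.22, edgeR adjusted p = 0.00601). It passed without each library in turn. Mpv17, an inner membrane protein needed to keep mitochondrial DNA in some tissues, was higher (1.18, SE 0.33, edgeR adjusted p = 0.038) and passed in 1 of 6 such fits. The calls among the 14 genes made 14.3%, beside 10.6% of all tested genes. None of 7 tested biogenesis regulators passed. Pprc1, a coactivator related to PGC-1, averaged 424 ± 179 CPM in BPA and 481 ± 11.7 CPM in untreated libraries, and the transcription factor gene Nrf1 127 ± 22.99 and 109 ± 12.01 CPM. Pprc1 was lower without BPA replicate 2 (edgeR adjusted p = 0.00337).

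Of 13 mitochondrial translation factors 2 were lower and 1 higher (23.1%), beside 10.6% of all tested genes called in either direction. Tufm, the elongation factor that brings transfer RNAs to the mitochondrial ribosome, had 283, 381 and 284 CPM in BPA libraries and 580, 606 and 617 CPM in untreated ones (-0.93, SE 0.15, edgeR adjusted p = 0.00271), and passed without each library in turn. Ict1, a peptide-releasing factor, was at -0.85 (SE 0.20, edgeR adjusted p = 0.0199) and Gfm2, a ribosome recycling factor, at 0.93 (SE 0.25, edgeR adjusted p = 0.0346). They passed in 3 and 2 of 6 fits that left out a library.

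The mitochondrial subunits assemble with nuclear partners. Of 70 tested nuclear subunits of complexes I, III, IV and V 25 were lower and 0 higher, with a median log2 fold change of -0.54, beside the 6.28% of all tested genes called lower. Per complex the counts were 12 of 35, 3 of 9, 5 of 11 and 5 of 15. Under the GC and length offsets 27 were lower, with a median of -0.36, and the medians of complexes I and III were -0.33 and -0.14. With the offsets 1232 of all 13287 tested genes were called lower, beside 835 without them. The number lower was 8, 35 and 12 when BPA replicate 1, 2 or 3 was left out. Of all tested genes 4.15%, 20.5% and 5.23% were called there, in either direction. When untreated replicate 1, 2 or 3 was left out, 7, 10 and 15 were lower. There 3.25%, 3.72% and 5.88% of all tested genes were called. The largest falls among those named were Uqcrh, a hinge subunit of complex III, with 47.4, 35.0 and 37.3 CPM in BPA and 143, 139 and 124 CPM in untreated libraries (-1.76, SE 0.19, edgeR adjusted p = 0.000189), and Atp5l, subunit g of the ATP synthase (-1.64, SE 0.21, edgeR adjusted p = 0.000501). Ndufa11 of complex I was at -1.20 (SE 0.15) and Cox6a1 of complex IV at -1.26 (SE 0.18). Of the 4 genes of complex II, which has no mitochondrially encoded subunit, 1 was lower, Sdhb (-0.67, SE 0.14, edgeR adjusted p = 0.01), and it lost the call in 3 of 6 fits without a library (edgeR adjusted p up to 0.0757).

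Complex IV thus had 5 of 11 nuclear subunits lower beside mt-Co3, while its mitochondrial members mt-Co1 and mt-Co2 were at 0.35 and 0.39. In complex I the median of the nuclear subunits was -0.54. Its 7 mitochondrial members were mt-Nd6 at -0.31, mt-Nd2 at -0.35, mt-Nd5 at -0.37, mt-Nd4 at -0.42, mt-Nd1 at -0.66, mt-Nd4l at -0.98 and mt-Nd3 at -1.92. Of these only mt-Nd3 was called. Under the GC and length offsets the nuclear median was -0.33, and the members ran from 0.46 (mt-Nd6) to -1.31 (mt-Nd3), with mt-Nd1 at -0.19. The difference between nuclear and mitochondrial members of a complex was not tested.

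**Figure D5:**
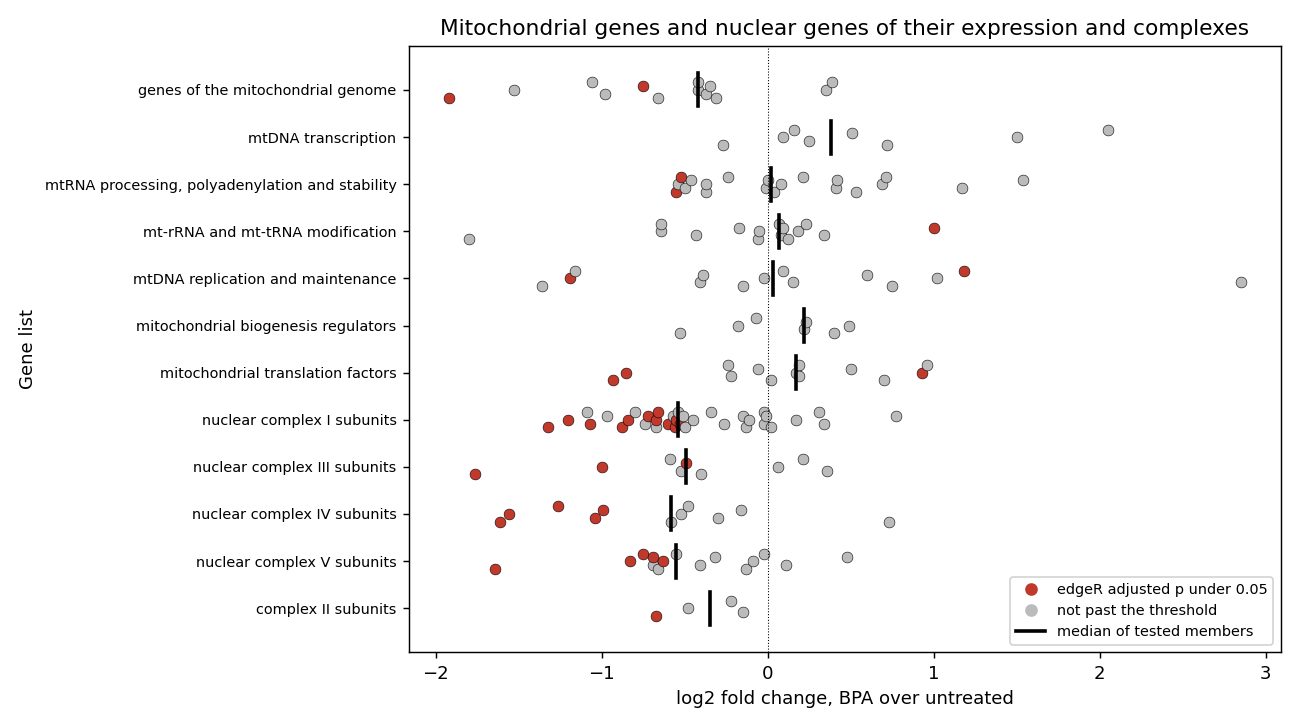
Log2 fold change, BPA over untreated (x axis), of the 13 mitochondrial genes and of the tested members of 11 nuclear gene lists (y axis), 1 point per gene, red where the edgeR adjusted p was under 0.05, with a bar at each median. The medians of the nuclear subunit lists of complexes I, III, IV and V lie between -0.58 and -0.49 (complexes I and III at -0.33 and -0.14 under the GC and length offsets), and those of the 6 lists of mitochondrial gene expression and maintenance between 0.02 and 0.38. Under those offsets the medians of the 6 lists run from -0.23 to 0.26.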

How the data were processed

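Per the labels' protocols, libraries were prepared (TruSeq RNA kit v2) from miRNeasy total RNA. The submitters' processing notes name TopHat2 2.0.9, HTSeq and mm10; the sources used here do not give the strand setting, the handling of reads with several matches or the annotation release. The deposited table holds raw counts per gene, and FPKM values that the authors deposited beside them (relative deviation of at most 9.2e-04 from counts over length and total). Tests used the counts: filterByExpr, trimmed mean of M-values, edgeR 4.0.16 (R 4.3.3) quasi-likelihood test with no block on 13287 genes. CPM are counts over the effective library size. Of the gene IDs 98.6% were found in GENCODE vM21, and all 13 members had the same locus there. Nuclear copies were sought by near-equal counts (within 5% in every library, at least 100 counts in the mitochondrial row) and with BLAST 2.17.0 of GENCODE transcripts. Within groups, libraries differed beyond counting noise (chi-square per degree of freedom 19.6 to 91.1). Intervals cover counting error only.

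Named genes were all members, and from each nuclear list at most 4 called genes (lowest adjusted p), or, with no call, the 2 of highest level. Not every named gene has its values printed. The members, lists and tests were chosen with earlier results of these data known. Alternatives were DESeq2 1.42.0, limma-voom (limma 3.58.1), other scalings, filters and copy treatments, a GC and length correction (lowess span 0.3), a replicate block, an FDR of 0.01 and leaving out each library. The fits were tested on simulated data.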

Additional observations from a re-analysis of the deposited data

How the results depend on the processing

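mt-Nd3 was called lower in all 20 alternative fits (-2.08 to -1.31). The number of members called lower, 2, was 1 with scaling by library size alone or at an FDR of 0.01, 5 with no low-count filter or in limma-voom and 4 in DESeq2; the number called higher, 0, was 2 with scaling by library size. Without single libraries 1 to 6 members were lower and 0 to 1 higher, while 3.25% to 20.5% of all tested genes were called. Same-numbered libraries deviated together by -0.114, 0.161 and 0.327 (correlation over 6688 genes), and differently numbered ones by -0.306 to 0.181. With 3 libraries a group these values cannot decide whether the numbers pair the samples. The labels state no pairing. With a replicate block 5 members were lower and 1 higher, and with the block and the GC and length correction 4 were lower. Calls among all tested genes varied too. Of 13287 tested genes 835 were called lower in the main fit, 786 with scaling by library size, 1206 in DESeq2 and 921 in limma-voom. With the block 985 were called lower, and with the block and the correction 1288. With no low-count filter 996 of 18833 were called lower. In the 11 nuclear lists 31 genes were lower and 3 higher; 5 were higher with scaling by library size, with no low-count filter or in DESeq2, and without single libraries 9 to 49 were lower and 0 to 8 higher. The GC and length correction turned mt-Nd2 to 0.21 and mt-Nd6 to 0.46 (0.15 with the block), neither called; the cause was not tested. The difference in the mitochondrial share, -0.123 percentage points (BPA minus untreated), was -0.479 with the 7 chromosome 1 copies added, an alternative chosen after the data were seen. mt-Atp8 and mt-Nd4l had the fewest counts of the members, 43 to 456 a library.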
